A study of Mus musculus with 15 samples.

Results

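Interferon-stimulated genes are the genes that cells switch on when interferon binds its receptor, and 44 of them were examined here in type 2 innate lymphoid cells (ILC2) and in their bone marrow precursors (ILC2p). The genes were taken by symbol from a fixed list of well known interferon targets, and all 44 were found, each as 1 row, among 24089 gene symbols in the tables. RNA was sequenced from 15 libraries of C57BL/6 mice carrying a floxed Tgfbr2 gene and ER-Cre, a recombinase that works once tamoxifen is given. Tgfbr2 encodes a receptor chain for the cytokine TGF-β. Mice were 8 to 12 weeks old. Those called Tgfbr2-/- received tamoxifen, 1 mg per day for 5 days, and those called WT received sunflower oil, so the floxed allele and the recombinase were shared by both groups. ILC2 came from the gut lamina propria, gated as CD45+ lineage-negative cells with CD127, Sca-1, CD25 and KLRG1, with 4 WT and 3 Tgfbr2-/- libraries. ILC2p were CD45.2+ lineage-negative cells with CD127, α4β7 and CD25 from the bone marrow of mixed chimeras 6 weeks after transfer, in which donor marrow of either genotype grew beside CD45.1 marrow in irradiated hosts, with 4 WT and 4 Tgfbr2-/- libraries. Each cell type was collected in 2 experiments, which carry other labels than those of the other cell type. Every group had 2 libraries per experiment except Tgfbr2-/- ILC2 of the second experiment, which had 1. The labels did not say whether the libraries of a group came from separate mice, so p-values measured the spread between these libraries. Counts assigned to genes ran from 12167066 to 32114265 per ILC2 library and from 10957021 to 35961215 per ILC2p library. The recombinase is not restricted to one cell type, so other cells of the treated animals could lose the gene too.

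Type I and type III interferons signal through the kinases JAK1 and TYK2, and their response runs through a DNA element called the ISRE, to which IRF9 binds. Interferon-γ signals through JAK1 and JAK2, and its response runs through a second element, the GAS. The products block viral RNA and its translation, tag proteins with ISG15, guard membranes, attack vacuoles that hold microbes, and cut and carry peptides for MHC class I. Many of these genes keep a basal level without infection.

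The labels were checked before the members were described. Levels are given as CPM, read counts divided by the effective size of their library (its total times a TMM factor), on one scale over the 15 libraries. Tgfbr2, at chr9:115993415-116084383 of NCBIM37 (mm9), did not separate the genotypes. In ILC2 it stood at 172, 262, 150 and 207 CPM in WT, against 206, 184 and 96.6 CPM in Tgfbr2-/-. In ILC2p it stood at 0.714, 233, 107 and 188 CPM in WT, against 87.4, 130, 30.9 and 219 CPM in Tgfbr2-/-. The groups overlapped in both cell types, and which part of the gene the deletion removes is not given in the sources used here, so counts over the whole gene do not check it. The names WT and Tgfbr2-/- below are those of the labels.

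Cell type markers were read in the same way. Gata3, the transcription factor that defines ILC2, was between 2275 and 4701 CPM in ILC2, between 2329 and 4735 CPM in WT ILC2p and between 870 and 1942 CPM in Tgfbr2-/- ILC2p. Klrg1, part of the ILC2 gate, was between 679 and 978 CPM in ILC2 and between 70.2 and 174 CPM in ILC2p. The 4 Tgfbr2-/- ILC2p libraries stood apart: 7 neutrophil granule genes summed to between 66892 and 84536 CPM there, and to between 160 and 448 CPM in WT ILC2p. In ILC2 the same 7 genes summed to at most 3.88 CPM. S100a8 was the most abundant of them, with a mean of 25803 CPM in Tgfbr2-/- ILC2p. No neutrophil marker was at 0 counts in all libraries of either ILC2p group. Basophil and mast cell genes summed to between 1211 and 1585 CPM in Tgfbr2-/- ILC2p against 111 to 298 CPM in WT, with Prss34 the most abundant in Tgfbr2-/- and Cpa3 in WT. In bulk RNA, fewer cells of a type and less RNA per cell cannot be told apart.

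Psmb8, a catalytic subunit of the immunoproteasome, had the highest level of all members in ILC2 of both genotypes and in WT ILC2p. Levels were compared between genes as RPKM (reads scaled for transcript length and library size, as deposited). Its median was 593 RPKM in ILC2, with a range of 477 to 748 over 7 libraries, 579 RPKM in WT ILC2p, with a range of 422 to 744 over 4 libraries, and 382 RPKM in Tgfbr2-/- ILC2p, with a range of 347 to 440 over 4 libraries. Psmb9, a second immunoproteasome subunit, followed in ILC2 at 240 RPKM (148 to 300), below every value of Psmb8. Tap1, a chain of the peptide transporter, had 146 RPKM (101 to 179) and Bst2, the virus-tethering membrane protein tetherin, 138 RPKM (90.2 to 222). The ranges of Psmb9, Tap1 and Bst2 overlapped. In ILC2p the order depended on genotype. Ifitm3 and Ifitm2, which restrict virus entry at membranes, had medians of 689 RPKM (491 to 975) and 586 RPKM (544 to 787) in Tgfbr2-/- ILC2p, above every Psmb8 value there, against 6.24 RPKM (4.40 to 8.88) and 35.5 RPKM (2.06 to 50.6) in WT ILC2p. In ILC2 Ifitm2 ranked 7 and Ifitm3 16 of 44 by median.

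The leader of each other role was taken by its mean over the 15 libraries, whatever their group. Zbp1, a sensor of Z-form nucleic acid, led the effectors acting on RNA or translation with a mean of 75.6 RPKM. Isg15, the ubiquitin-like tag, led its pair with 65.0 RPKM. Its medians over both genotypes were 114 RPKM in ILC2 and 15.5 RPKM in ILC2p, where Usp18, the other member of the pair, had 15.6 RPKM. In edgeR the cell types did not differ in Isg15 by the call rule given below (adjusted p = 0.909 among WT and 0.134 among Tgfbr2-/- libraries). DESeq2 called Isg15 among Tgfbr2-/- libraries only. Ddx58, which encodes the RNA sensor RIG-I, led the helicases with 17.6 RPKM. Ifi47, an immunity-related GTPase, led the 11 guanylate-binding proteins and immunity-related GTPases with 105 RPKM, although in ILC2 its median of 79.4 RPKM lay below those of Gbp2 (84.4) and Igtp (84.2). Rtp4, a membrane-trafficking chaperone, led the 6 remaining genes with 31.1 RPKM, although in WT ILC2 its mean of 7.20 RPKM lay below those of Xaf1 (11.4), Parp9 (10.4) and Trim30a (10.1).

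**Figure D1:**
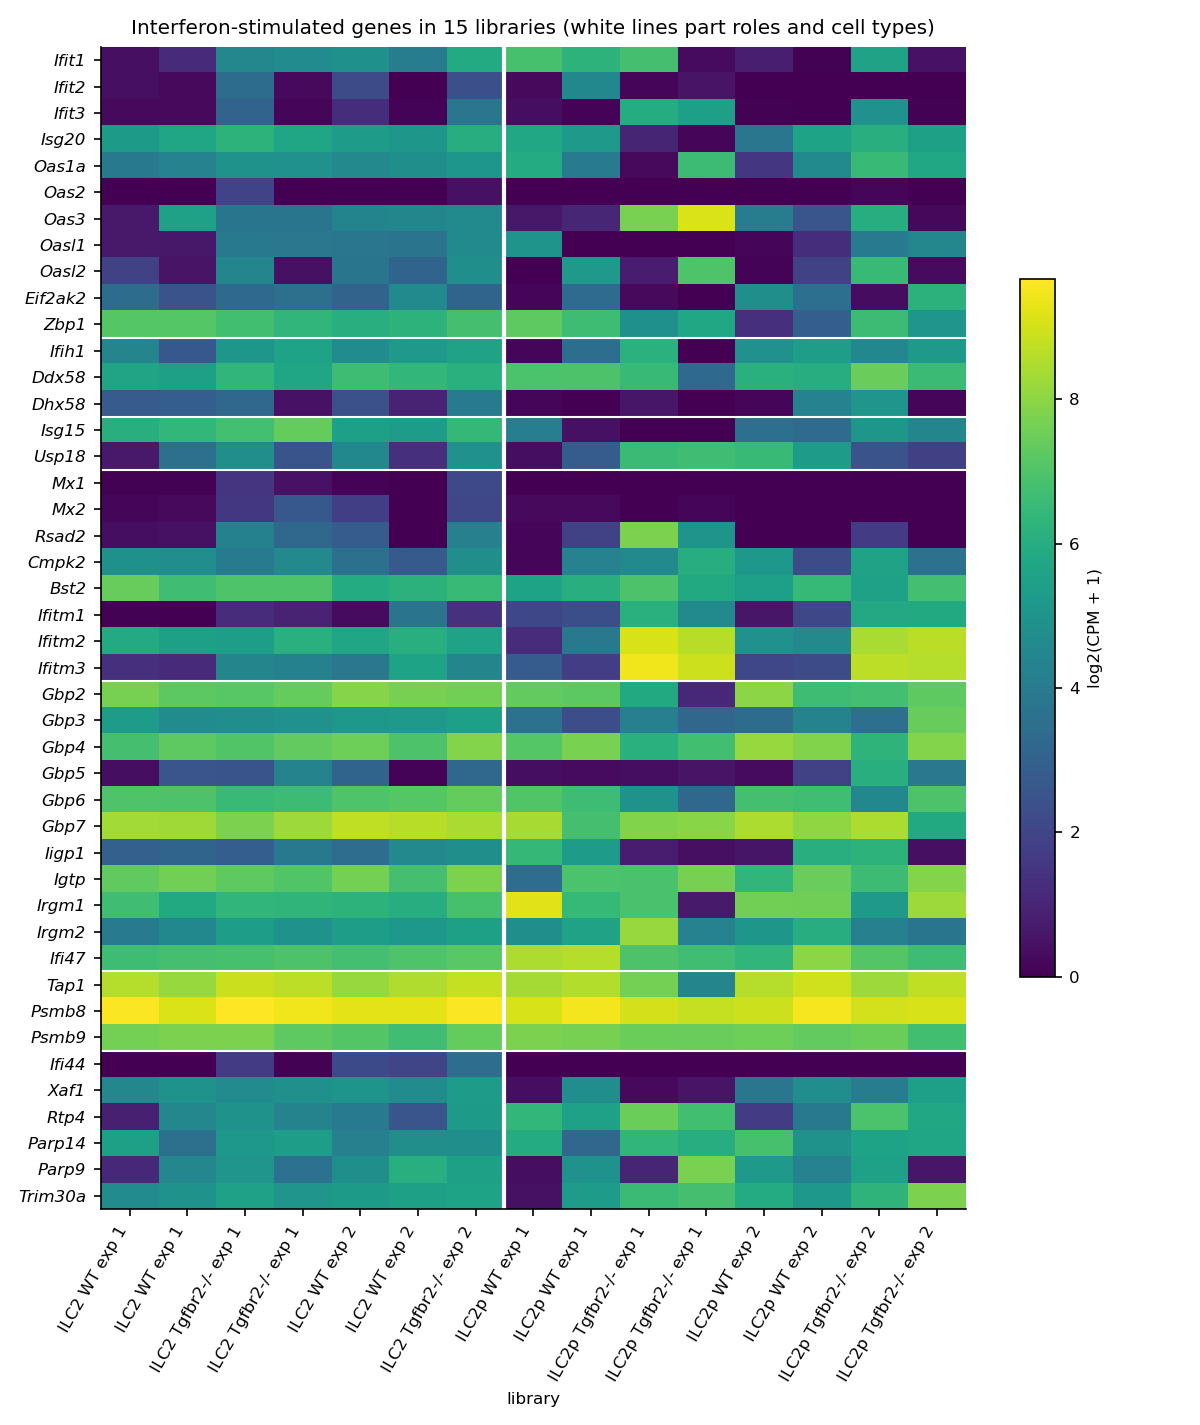
Level of each member (rows, grouped by role between white lines) in each of 15 libraries (columns), as log2(CPM + 1), with ILC2 left and ILC2p right of the white bar. Psmb8 and Psmb9 are high in every ILC2 library, whereas many rows in ILC2p switch between dark and bright from one library to the next.

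Several members were barely detected. Oas2, a maker of 2-5A second messengers, and Mx1, a dynamin-like antiviral GTPase, had 3 counts or fewer in 5 and 4 of the 7 ILC2 libraries. In ILC2p this held in 4 or more of 8 libraries for Ifit2, Ifit3, Oas2, Oasl1, Dhx58, Mx1, Mx2, Rsad2 and Ifi44. Mx1 and Ifi44 were at 0 counts in all 8 ILC2p libraries, and Oas2 in 7 of them. The highest level in an ILC2p library was 0.0851 CPM for Oas2 and 0.179 CPM for Mx2, while Ifit2 reached 21.6 CPM in 1 WT library and Rsad2 214 CPM in 1 Tgfbr2-/- library. Ifit3 was at 0.268, 0.0581, 0.0283 and 0.0243 CPM in WT ILC2p, against 61.6, 42.8, 28.7 and 0.0387 CPM in Tgfbr2-/- ILC2p. It was thus present in 3 libraries, all Tgfbr2-/-, and near 0 in the other 5.

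The libraries of a pair differed for some members, as they did for genes at large. In ILC2, 5 of 44 members differed by more than 4-fold, on the log2(CPM + 1) scale, between the 2 libraries of a group and experiment, in each of the 3 pairs. In ILC2p the number was 15 and 5 in the WT pairs of the first and second experiment, and 11 and 13 in the Tgfbr2-/- pairs. Over the 12806 genes tested in all libraries the same happened to between 7.29% and 18.9% of genes in ILC2 pairs and to between 20.8% and 35.7% in ILC2p pairs. Ifit1, which binds foreign RNA caps, shows the pattern: it stood at 116, 74.1, 0.736 and 0.0485 CPM in WT ILC2p, against 110, 0.207, 46.5 and 0.387 CPM in Tgfbr2-/- ILC2p. High and near-absent libraries occurred in both genotypes. Members under 1 CPM made up between 0 and 31.8% of the 44 in ILC2 libraries and between 13.6 and 40.9% in ILC2p libraries, against 10.2 to 29.3% and 21.5 to 49.3% of the 12806 genes. These ranges overlapped. Within every Tgfbr2-/- library the members' share lay below that of the 12806 genes, and in WT libraries it lay on either side.

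**Figure D2:**
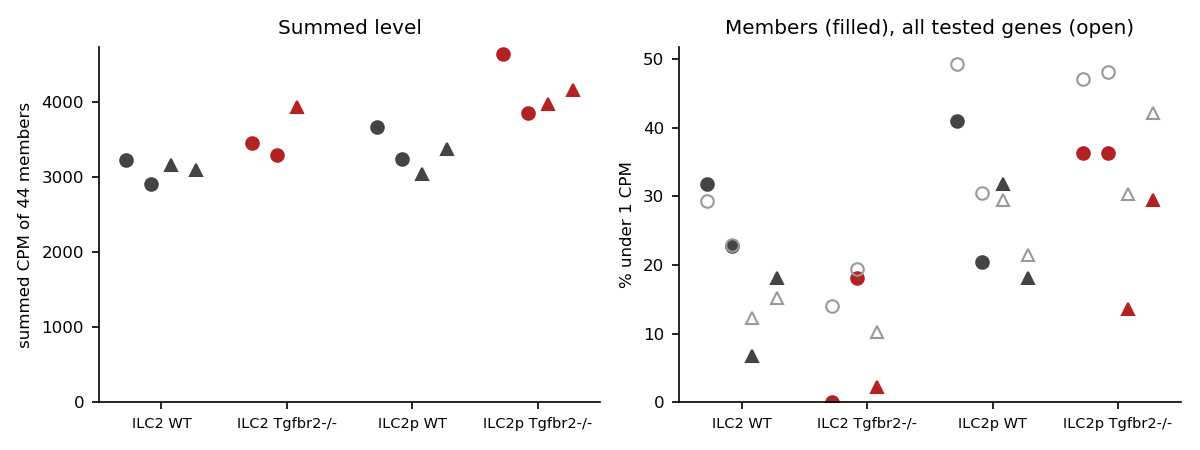
Left, summed CPM of the 44 members in each library by group; right, percent of members (filled) and of 12806 tested genes (open, grey) under 1 CPM; circles are the first and triangles the second experiment. The sums of Tgfbr2-/- libraries, 3293 to 3943 in ILC2 and 3861 to 4650 in ILC2p, lie above those of WT libraries of the same cell type.

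The members summed to 3098 ± 140 CPM in WT ILC2 (SD, n = 4), 3563 ± 339 CPM in Tgfbr2-/- ILC2 (SD, n = 3), 3336 ± 261 CPM in WT ILC2p (SD, n = 4) and 4163 ± 349 CPM in Tgfbr2-/- ILC2p (SD, n = 4). Libraries of the 2 genotypes did not overlap within either cell type. When libraries were scaled by total counts only, the ILC2 sums ran from 2879 to 3548 in WT and from 3328 to 4453 in Tgfbr2-/-, the ILC2p sums from 3182 to 3869 and from 3365 to 3916, and the genotypes overlapped in both. Within each experiment they still did not overlap in ILC2, with 2879 and 3090 against 3328 and 3656 in the first and 3407 and 3548 against 4453 in the second, and they overlapped in ILC2p. The 11 GTPases and the 3 antigen-processing genes held the larger part of the sum in ILC2, with means of 1260 and 1132 CPM in WT and of 1227 and 1383 CPM in Tgfbr2-/-. In ILC2p their means were 1487 and 1211 CPM in WT, against 1034 and 904 CPM in Tgfbr2-/-, while the membrane and nucleotide-pool factors went from 99.1 ± 27.9 (SD, n = 4) to 1148 ± 351 CPM (SD, n = 4).

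The first comparison asked how these genes differed between Tgfbr2-/- and WT gut ILC2. Tamoxifen went with Tgfbr2-/- and oil with WT, and the study's methods place killing on the day after the last treatment. Loss of Tgfbr2 and tamoxifen itself thus cannot be told apart. Of 42 members tested, none passed the call rule, an adjusted p under 0.1 with a fold over 1.5, in a test that called none of 11981 genes (0.0%). Without adjustment, 5 members had p under 0.05, all higher in Tgfbr2-/-: Isg15, Ifit1, Oasl1, Ifit3 and Rsad2. Across all genes 2.56% were at that level in the higher direction. Ifit3 and Rsad2 had more than 10 counts in only 1 of 4 WT libraries and so entered the test through the group where they are high, and their small p is not read. DESeq2 called 4 of the 5, Isg15, Ifit1, Oasl1 and Rsad2, the last with the same limit, against 2.25% of all genes called higher. The members' median log2 fold change was 0.46, against -0.01 over all genes tested, and 33 of 42 were above 0, against 49.5% of all genes. The members' median was 0.28 with no experiment term, against -0.05 over all genes.

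Isg15 lies at chr4:155573533-155574927. Its level was 66.8 and 82.8 CPM in WT, against 110 and 166 CPM in Tgfbr2-/- libraries of the first experiment, and 43.2 and 39.9 CPM against 84.4 CPM in the second. Every Tgfbr2-/- library stood above every WT library of its experiment. The log2 fold change was 0.91 (SE 0.23, edgeR adjusted p = 0.898), and an exact permutation of genotype within experiments gave a two-sided p of 0.0556, the smallest that the 18 arrangements allow.

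Ifit1, at chr19:34715361-34724499, had 0.328 and 1.20 CPM in WT against 21.3 and 24.5 CPM in Tgfbr2-/- in the first experiment. In the second it had 27.6 and 15.8 CPM against 58.4 CPM. The WT libraries of the second experiment thus overlapped the Tgfbr2-/- libraries of the first, and within each experiment the genotypes separated. Its log2 fold change was 3.70 (SE 0.98, edgeR adjusted p = 0.898), and between 2.78 and 4.87 with 1 library left out.

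Oasl1, which limits translation of Irf7 mRNA and belongs to the 2-5A synthetase family, followed the same course. It had 0.562 and 0.529 CPM in WT against 14.0 and 13.2 CPM in Tgfbr2-/- in the first experiment, and 12.9 and 12.2 CPM against 23.0 CPM in the second. Its log2 fold change was 3.37 (SE 1.10, edgeR adjusted p = 0.898), and between 2.65 and 4.59 with 1 library left out. Rsad2, the radical-SAM enzyme viperin, had 0.281, 0.337, 6.08 and 0 CPM in WT, against 17.8, 8.63 and 17.5 CPM in Tgfbr2-/-. Its groups did not overlap, yet its log2 fold change of 4.35 had an SE of 1.74 and an edgeR adjusted p of 0.898. Ifit3, which has a near-identical neighbour whose reads the counting could have split, had 0.187, 0.192, 1.41 and 0.0698 CPM in WT, against 7.34, 0.0925 and 12.7 CPM in Tgfbr2-/-. One Tgfbr2-/- library was as low as WT.

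**Figure D3:**
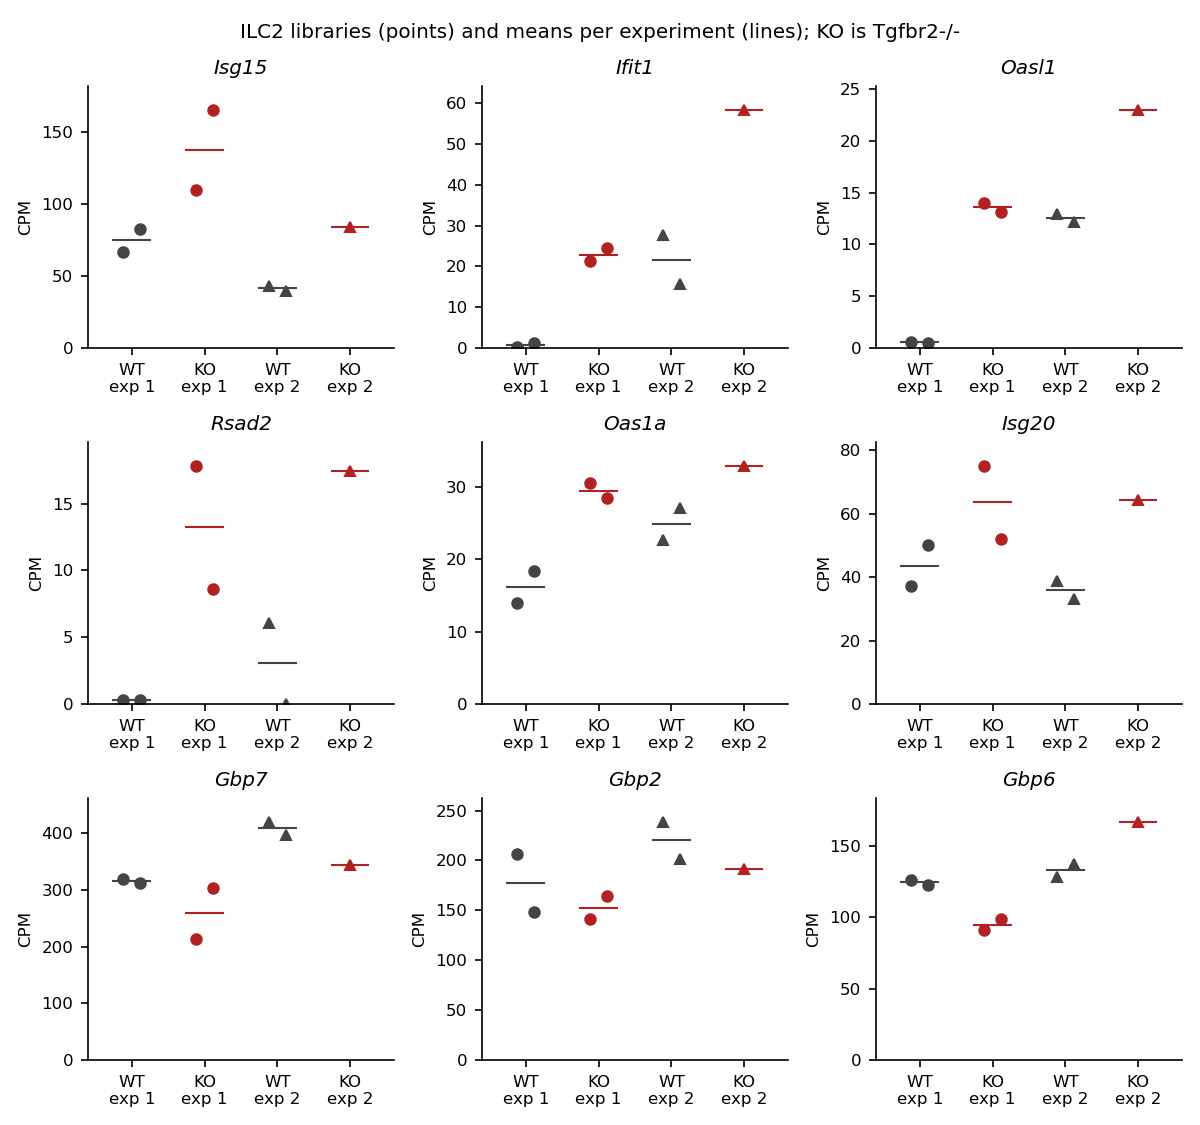
CPM of 9 members in ILC2, with each point a library, each line the mean of a group in an experiment, grey WT and red Tgfbr2-/- (KO), circles the first and triangles the second experiment. Isg15, Ifit1, Oasl1, Rsad2, Oas1a and Isg20 lie higher in red than in grey within each experiment, and Gbp7 lies lower.

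Counted by library over the 42 tested members, 13 had every Tgfbr2-/- ILC2 library above every WT library of its experiment, against 7.11% of all tested genes, and 1, Gbp7, had every one below, against 5.58%. They were Ifit1, Isg20, Oas1a, Oasl1, Ifih1, Isg15, Mx2, Rsad2, Irgm2, Ifi47, Tap1, Ifi44 and Trim30a. Mx2 and Ifi44 had 3 counts or fewer in 2 of 4 WT libraries and Rsad2 in 1, so their place among the 13 is not read. Among the 33 members with at least 10 counts in every ILC2 library, 9 were above, against 5.81% of genes kept in the same way. Oas1a, a 2-5A synthetase, had 13.9, 18.4, 22.7 and 27.1 CPM in WT, against 30.5, 28.4 and 32.9 CPM in Tgfbr2-/-, and Isg20, an exonuclease, 37.1, 50.02, 38.8 and 33.2 CPM against 75.0, 52.0 and 64.3 CPM. Neither passed the test.

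Of the 11 GTPases, 6 had a log2 fold change above 0 with a median of 0.19, none had an unadjusted p under 0.05, and 2, Irgm2 and Ifi47, are among the 13 above. Gbp7, the member with the smallest p in the lower direction, had 319, 313, 420 and 397 CPM in WT, against 213, 304 and 343 CPM in Tgfbr2-/- (log2 fold change -0.30, SE 0.17, edgeR adjusted p = 0.898). Gbp2 and Gbp6 were next, at -0.24 (SE 0.20) and -0.12 (SE 0.22), and their libraries overlapped. The 3 antigen-processing genes had log2 fold changes between 0.07 and 0.39, with Tap1 highest at 383, 284, 288 and 367 CPM in WT, against 469, 417 and 447 CPM in Tgfbr2-/-. Tap1 and Psmb9 overlap each other on the genome, and the strand of the reads was not given, so their counts are not fully separate.

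Markers of other cells were read in the same libraries. Of 5 tested NK cell and ILC1 genes, all had a log2 fold change above 0 and 2, against 2.56% of all genes in that direction, had an unadjusted p under 0.05, Klrb1c (2.32, SE 0.80) and Ncr1 (1.47, SE 0.55). The list summed to 392, 230, 218 and 286 CPM in WT, against 293, 497 and 944 CPM in Tgfbr2-/-, with Gzma the most abundant and Eomes at 0 counts in every library. Epithelial genes, led by Krt8, summed to 6.74, 15.7, 98.5 and 319 CPM in WT, against 43.7, 33.8 and 746 CPM in Tgfbr2-/-. Within each experiment the Tgfbr2-/- sums lay above the WT sums. Of the 5 epithelial genes tested, 4 were above 0 and 2, against the same 2.56%, had an unadjusted p under 0.05 in the higher direction. The 6 plasmacytoid dendritic cell genes, of cells that are major producers of type I interferon, summed to between 155 and 304 CPM in WT and between 180 and 274 CPM in Tgfbr2-/-. Ccr9, a gut-homing receptor that is not restricted to those cells, was the most abundant, with means of 179 and 221 CPM, Cox6a2 was at 0 counts in every ILC2 library and Siglech at or under 0.0481 CPM. None of the 3 genes tested passed. T cell genes, led by Cd6 in WT and Cd3g in Tgfbr2-/-, with Cd8a at 0 counts throughout, summed to 123, 103, 129 and 90.7 CPM in WT, against 75.1, 62.7 and 51.2 CPM in Tgfbr2-/-, without overlap. Of 13 ILC2 and gate genes, 5 had every Tgfbr2-/- library below every WT library of its experiment, where 5.58% of all genes did. The study's lineage exclusion used CD3 and CD5, which mark T cells, and B220 and CD11c, found on dendritic cells. The part of NK, T, dendritic or epithelial RNA in the differences of the members was not tested.

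The promoters were read for the letters of both interferon elements. RefSeq gave a promoter for 32 of 44 members (build GRCm38.p6), and the 250 bases before the start were searched on both strands for the ISRE core, GAAA, any 2 bases and GAAA again. It was found in 16 of 32 members, against 3.46% of all 27025 symbols with a promoter. TTCNNNGAA, the GAS core, which reads the same on both strands, was found in 10 of 32, against 8.13%, and in 1 member, Bst2, a match to one overlapped a match to the other. By role, the ISRE core was in 7 of 8 GTPase genes, all but Ifi47, in 4 of 9 effectors acting on RNA or translation, in 3 of 6 membrane and nucleotide-pool factors and in none of the 3 antigen-processing genes. A match is a run of letters and not a shown binding site. The stretches below, all before the gene's start and with the ISRE core in capitals, are shown because Isg15 and Ifit1 had a small p in ILC2, Ifit3 and Rsad2 were near 0 in some libraries and high in others, and Ifitm2 passed in ILC2p. Their positions are those of an exact match in NCBIM37 (mm9): Isg15 chr4:155574976-155575020 on the minus strand, Ifit1 chr19:34715260-34715311 and Ifit3 chr19:34657848-34657914 on the plus strand, Rsad2 chr12:27141420-27141452 and Ifitm2 chr7:148141889-148141921 on the minus strand. The Ifit3 stretch occurs 2 times near the gene.
Isg15: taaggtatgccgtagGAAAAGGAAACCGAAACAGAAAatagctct
Ifit1: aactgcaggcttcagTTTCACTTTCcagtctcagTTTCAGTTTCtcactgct
Ifit3: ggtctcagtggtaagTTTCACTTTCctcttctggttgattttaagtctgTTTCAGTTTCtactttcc
Rsad2: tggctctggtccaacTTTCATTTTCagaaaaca
Ifitm2: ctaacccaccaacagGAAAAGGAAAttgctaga

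In Isg15 the 3 matches run into each other, with first bases at -78, -72 and -66 from the gene's start, whereas the 2 in Ifit1 stand apart, at -104 and -85. The starts are those of the RefSeq table, and for Ifit1, Ifit3 and Ifitm2 they are not the first base of the gene in NCBIM37. Oasl1, Ifih1, Tap1, Ifitm1 and Ifitm3 had no match to either core in this window, and Isg20 had the GAS core alone. No match says only that these letters are not in the window.

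The second comparison asked the same of marrow precursors, where 36 members were tested and 2, Ifitm3 and Ifitm2, passed higher in Tgfbr2-/-; 2.61% of 9242 tested genes were called higher, and 0.866% lower. Ifit2, Ifit3, Oas2, Dhx58, Mx1, Mx2, Gbp5 and Ifi44 did not pass the low-count filter and were not tested, although Ifit3 reached 61.6 CPM and Gbp5 65.2 CPM in a Tgfbr2-/- library. The median over the 36 was 0.29, against -0.10 over all genes, with 20 of 36 above 0 against 47.3% of genes. That median was not steady: it was 0.0038 with upper quartile scaling, where the median of all genes was -0.40, 0.010 against -0.023 over the 19 members with at least 10 counts in every library, 0.10 without Tgfbr2-/- replicate 1 of the first experiment and 0.60 without WT replicate 2 of the first experiment. With experiment 1 alone it was 0.75, against 0.05 over all genes.

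Ifitm3, at chr7:148195485-148196669, had 5.98, 2.38, 3.20 and 3.66 CPM in WT, against 695, 487, 410 and 380 CPM in Tgfbr2-/-. The groups were far apart in both experiments, and the log2 fold change was 6.96 (SE 0.51, edgeR adjusted p = 0.000124). Ifitm2, its neighbour at chr7:148140736-148141882, had 1.34, 14.1, 28.3 and 22.5 CPM in WT, against 542, 394, 344 and 407 CPM in Tgfbr2-/- (log2 fold change 4.87, SE 0.86, edgeR adjusted p = 0.0206). The remaining member of the family, Ifitm1, had 3.30, 4.01, 0.481 and 3.23 CPM in WT, against 69.2, 23.2, 55.6 and 57.1 CPM in Tgfbr2-/-, also without overlap, at a log2 fold change of 4.25 (SE 1.41, edgeR adjusted p = 0.264). For all 3 the exact two-sided permutation p was 0.0556, the smallest that 36 arrangements allow. In the first experiment alone, with 2 libraries a group, Ifitm3 had an edgeR adjusted p of 0.104 and Ifitm2 of 0.357.

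Neutrophil genes moved in the same libraries. All 7 passed higher in Tgfbr2-/- ILC2p, with a median log2 fold change of 8.34. S100a8, an alarmin subunit, was at 59.0, 60.5, 167 and 78.3 CPM in WT, against 29610, 23800, 24110 and 25692 CPM in Tgfbr2-/-. Ly6c2, a monocyte gene, was at 12.6, 14.2, 36.3 and 45.7 CPM in WT, against 730, 835, 862 and 787 CPM in Tgfbr2-/-, and Prss34, a basophil protease, at 2.05, 1.98, 5.15 and 2.18 CPM against 823, 947, 901 and 929 CPM. Ifitm6, a further gene of the family that is not in the list and was chosen after its values were seen, had 0.803 to 3.54 CPM in WT, against 350 to 649 CPM in Tgfbr2-/-. In ILC2, where the 7 neutrophil genes summed to at most 3.88 CPM, Ifitm2 was between 40.1 and 69.4 CPM, Ifitm3 between 1.30 and 47.2 CPM and Ifitm1 between 0 and 12.1 CPM. The NK cell and ILC1 genes, led by Prf1, summed to 0.446, 18.4, 37.4 and 9.39 CPM in WT ILC2p, against 153, 133, 94.5 and 428 CPM in Tgfbr2-/-, and 1 of 4 tested passed higher. The 13 ILC2 and gate genes summed to between 7738 and 11258 CPM in WT, against 3731 to 5260 CPM in Tgfbr2-/-, with 3 of 12 tested called lower. The antibodies that the study's methods give for its lineage exclusion include CD11b and Gr-1, which mark neutrophils and monocytes. The part of neutrophil, monocyte, basophil or NK cell RNA in the Ifitm differences was not tested.

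**Figure D4:**
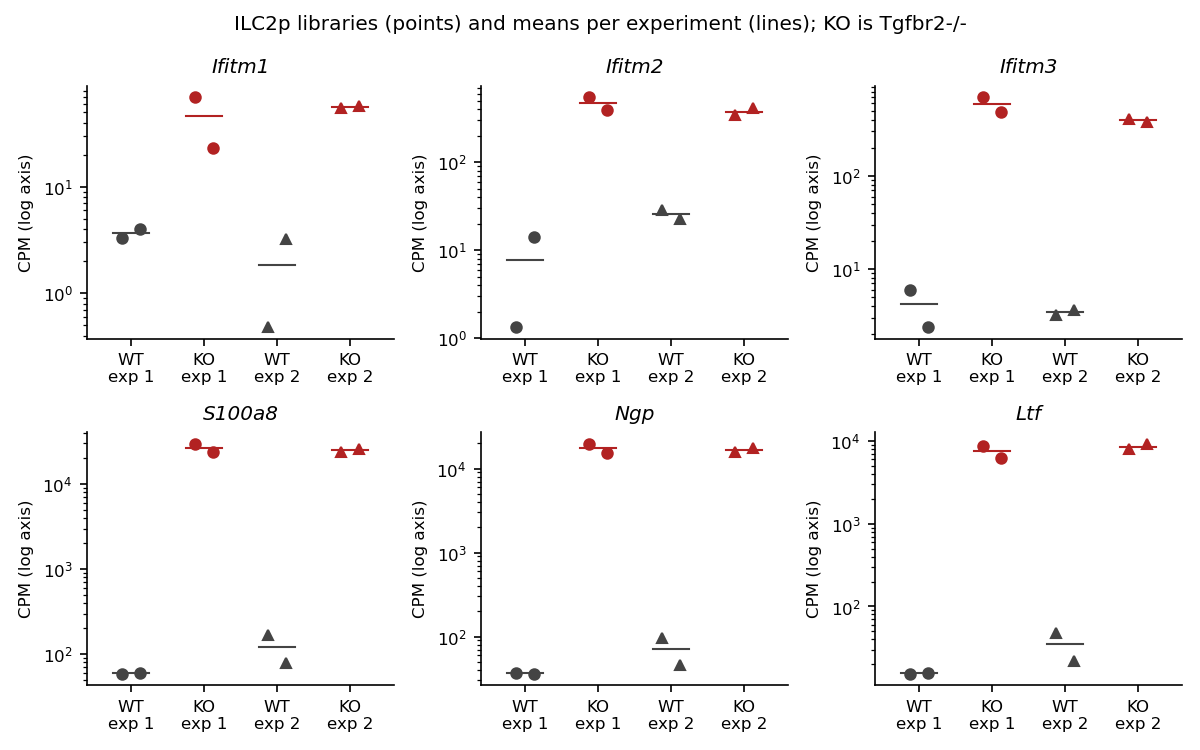
CPM (log axis) of the 3 Ifitm members and of the neutrophil genes S100a8, Ngp and Ltf in ILC2p; each point is a library and each line the mean of a group in an experiment, grey WT, red Tgfbr2-/- (KO). In all 6 panels every red point lies above every grey point.

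No other member passed. Rsad2 was at 0.0893, 2.67, 0 and 0 CPM in WT, against 214, 31.2, 2.26 and 0 CPM in Tgfbr2-/-, so that 1 Tgfbr2-/- library was as empty as WT (edgeR adjusted p = 0.248). It had 3 counts or fewer in 3 of 4 WT libraries and so entered the test through the group where it is high, and its p is not read. Rtp4 had 84.0, 44.8, 2.21 and 13.9 CPM in WT, against 180, 106, 120 and 54.3 CPM in Tgfbr2-/-, and its p of 0.0497 became 0.514 after adjustment in edgeR. DESeq2 called 6 members higher, Ifitm1, Ifitm2, Ifitm3, Rsad2, Oas3 and Rtp4, against 7.31% of genes. The call on Rsad2 has the limit just given and is not read. Oas3 was at 0.536, 1.05, 16.1 and 4.78 CPM in WT, against 211, 548, 64.0 and 0.155 CPM in Tgfbr2-/-, and the last library lay below all WT libraries.

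In the lower direction the smallest p belonged to 3 GTPases. Ifi47 had 350, 381, 80.2 and 251 CPM in WT, against 124, 102, 135 and 100 CPM in Tgfbr2-/- (log2 fold change -1.12, SE 0.51, edgeR adjusted p = 0.539). Gbp4 had a log2 fold change of -0.90 (SE 0.49) and Gbp6 of -1.60 (SE 0.93). The genotypes overlapped for each of the 3. Of the 10 GTPases tested 3 were above 0, and of the 3 antigen-processing genes none was. Isg15, which separated the genotypes in ILC2, was at 16.5, 0.349, 10.5 and 9.51 CPM in WT ILC2p, against 0, 0, 33.7 and 20.8 CPM in Tgfbr2-/-. Counted by library within experiments, 5 of 36 tested members were above, against 8.06% of tested genes, and 0 below, against 5.94%.

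**Figure D5:**
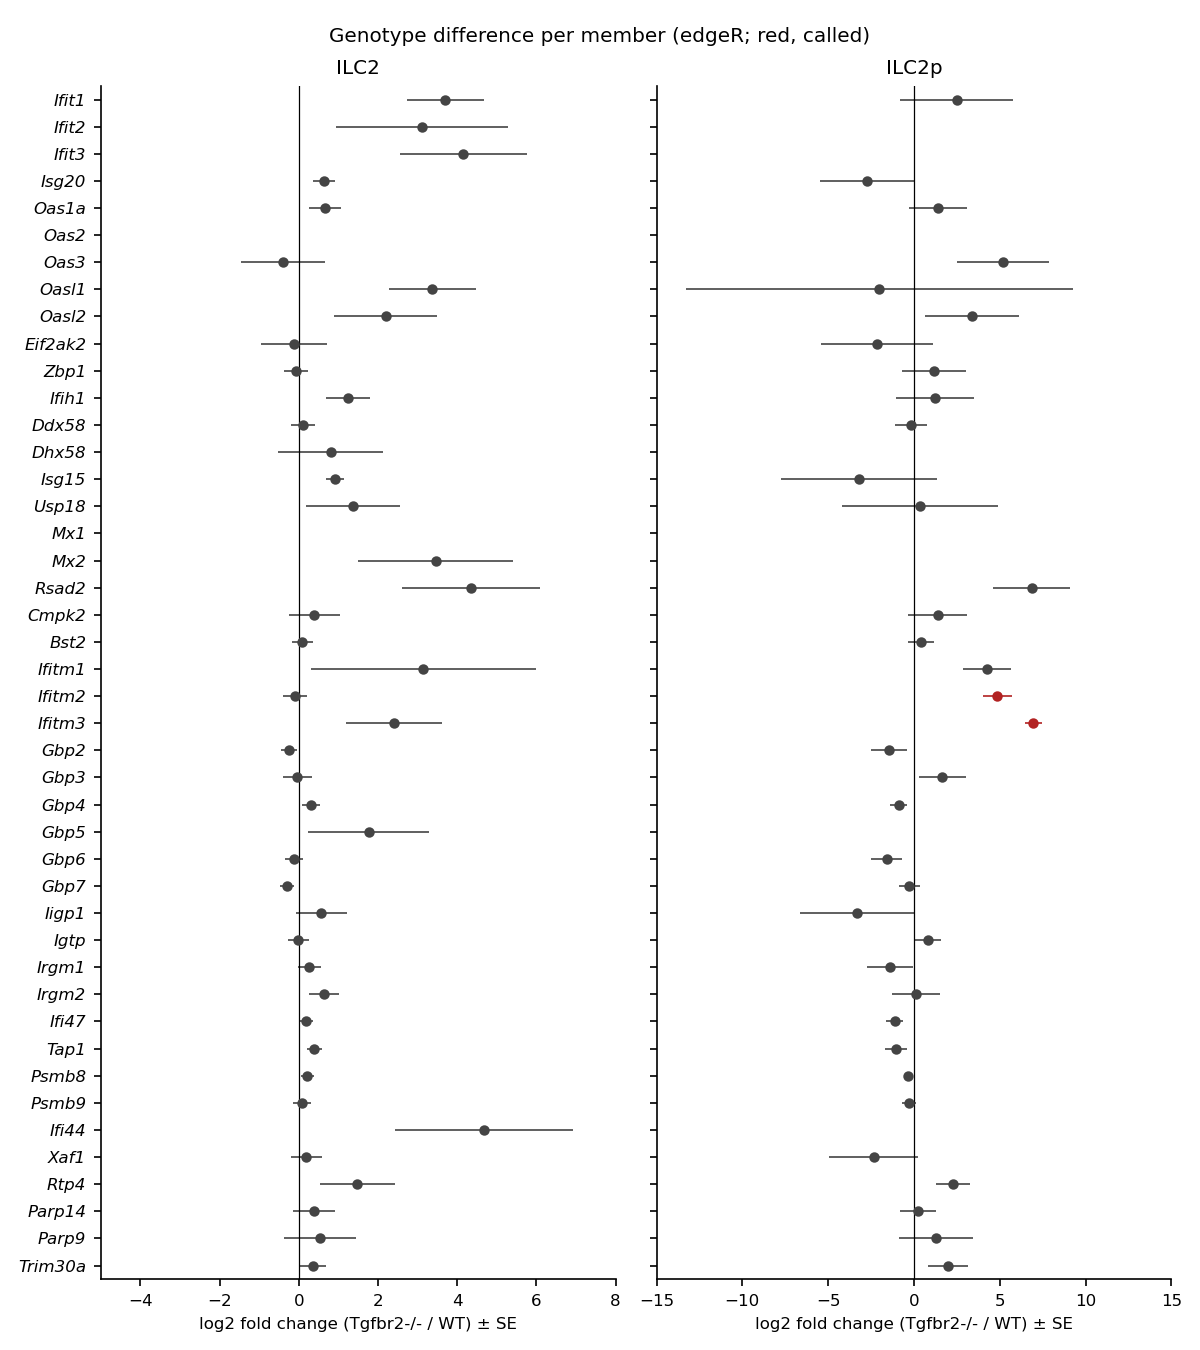
Log2 fold change of Tgfbr2-/- over WT with its SE for each tested member in ILC2 (left) and ILC2p (right, on a wider axis), red where called. Most ILC2 points lie right of 0 with none called, and in ILC2p Ifitm2 and Ifitm3 are called.

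The difference between the 2 cell types was tested directly. Tissue, host, sort gate, time since treatment and experiment go with cell type here and cannot be told apart from it. The genotype effect of Ifitm2 in ILC2 minus that in ILC2p was -4.96 (SE 0.99, edgeR adjusted p = 0.0449), the only member called, where 0.523% of 12806 genes were called lower and 0.469% higher. Ifitm3 gave -4.54 (SE 1.13, edgeR adjusted p = 0.111). Markers of other cells had differences of the same sign: all 7 neutrophil genes were below 0, 2 of them called, as were the monocyte gene Ly6c2 and the NK cell gene Gzma, and their part in the Ifitm2 difference was not tested. The call on Ifitm2 was lost without WT replicate 1 of the first experiment in ILC2 (edgeR adjusted p = 0.107) or without any 1 of the 3 Tgfbr2-/- ILC2 libraries (edgeR adjusted p between 0.123 and 0.298). In the other direction Ifi47 gave 1.31 (SE 0.61, edgeR adjusted p = 0.411) and Gbp4 1.19 (SE 0.59, edgeR adjusted p = 0.449). Oas3 gave -5.59 (SE 3.08, edgeR adjusted p = 0.531), and from -7.73 to -2.89 with 1 library left out. Ifit2, at 3 counts or fewer in most ILC2p libraries, had an edgeR adjusted p of 0.455. Isg15, Ifit1 and Oasl1 did not pass, so a difference between cell types was not shown for them.

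Gut ILC2 and marrow ILC2p of WT animals were also compared. None of 42 members passed, where 2.11% of genes were called higher in ILC2 and 0.804% lower. Ifitm2 in the higher and Ifi47 in the lower direction had an unadjusted p under 0.05, against 10.7% and 3.86% of genes, as did Mx2, which entered the test only through its ILC2 counts and is not read. Ifitm2 had the smallest p, with a log2 fold change of ILC2 over ILC2p of 1.87 (SE 0.64, edgeR adjusted p = 0.169). Ifi47 followed at -1.17 (SE 0.41, edgeR adjusted p = 0.184), and 2 more GTPases, Irgm1 and Iigp1, had -1.89 (SE 1.09) and -2.93 (SE 1.95). Between these WT libraries all 7 neutrophil genes and 3 of 4 basophil and mast cell genes were called lower in ILC2. Of the tested NK cell and ILC1 genes 3 of 5, and of the ILC3 genes 2 of 4, were called higher. The part of such cells in the members' differences was not tested. Among Tgfbr2-/- libraries Ifitm3 (-3.61, SE 0.89, edgeR adjusted p = 0.0280) and Ifitm2 (-3.09, SE 0.76, edgeR adjusted p = 0.0275) passed lower in ILC2, where 3.66% of genes were called lower and 12.3% higher. Ifitm2 missed the threshold without the Tgfbr2-/- ILC2 library of the second experiment (edgeR adjusted p = 0.132), and Ifitm3 passed each time. All 7 neutrophil and all 4 basophil and mast cell genes were called lower in ILC2 in the same comparison, and their part in the Ifitm differences was not tested. Mx2, Ifit2 and Ifi44 also passed, higher in ILC2, but they entered the test only through their ILC2 counts, so their calls are not read. They were at 2.00, 5.36 and 3.13 CPM, at 9.59, 0.185 and 4.15 CPM, and at 2.32, 0.0308 and 9.97 CPM in the 3 ILC2 libraries, against at most 0.104, 0.415 and 0 CPM in the 4 ILC2p libraries. Both comparisons of cell types differ in tissue, in host, in sort gate, in time since treatment and in experiment. None of these can be told apart from cell type.

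The experiments were compared within each cell type. In ILC2 no member passed, where 0.977% of genes did, and Ifit1 and Isg15 had the smallest p. Ifit1 was higher in the second experiment by 3.62 on the log2 scale (SE 0.98, edgeR adjusted p = 0.156) and Oasl1 by 3.25 (SE 1.10, edgeR adjusted p = 0.254). For Isg15 the log2 difference was -0.82 (SE 0.24, edgeR adjusted p = 0.184), for Bst2 -0.84 (SE 0.27) and for Psmb9 -0.56 (SE 0.24). Ifi44 was at 0, 0, 2.32 and 0.0308 CPM in the first experiment and at 3.49, 3.07 and 9.97 CPM in the second. DESeq2 called 5 members higher (Ifit1, Oasl1, Ifitm1, Ifitm3 and Ifi44) and 2 lower (Isg15 and Bst2), against 6.65% and 4.59% of genes. Ifitm1 and Ifi44 had 3 counts or fewer in 2 and 3 of the 7 ILC2 libraries, so their calls are not read. Markers of other cells moved with the experiment too: all 5 epithelial genes had a log2 difference above 0, and 3 were called higher in the second experiment. Of 3 tested plasmacytoid dendritic cell genes 1, Klk1, was called higher. ILC3 genes, led by Il22, summed to 494, 199, 237 and 265 CPM in the first experiment, against 42.1, 21.4 and 134 CPM in the second. Their median log2 difference was -2.36, with none of the 4 called. Monocyte and macrophage genes, led by C1qa, summed to between 0.374 and 10.6 CPM, against 4.79, 179 and 13.0 CPM. The part of these cells' RNA in the members' differences between experiments was not tested. In ILC2p no member and 0.0% of genes passed, and 288 genes (3.12%) had an unadjusted p under 0.05, 1 of them a member, Rsad2 (edgeR adjusted p = 0.999). Rsad2 had 3 counts or fewer in 4 of 8 ILC2p libraries, most of them of the second experiment, so its small p is not read. Rtp4, Ifit1, Tap1, Eif2ak2 and Xaf1 followed, with unadjusted p from 0.0881 to 0.215. The interaction of genotype and experiment in ILC2p called no gene (0.0%), and 6 members had an unadjusted p under 0.05, where 7.43% of genes did. Usp18, which removes ISG15 from proteins, had the smallest p, with 0.268 and 6.10 CPM in WT against 95.3 and 103 CPM in Tgfbr2-/- in the first experiment and 93.8 and 38.8 CPM against 4.56 and 2.56 CPM in the second. The order of the genotypes was turned between experiments (log2 difference -9.27, SE 2.76, edgeR adjusted p = 0.612). Of the other members at that level, Oas3 had a difference of the same sign, and Zbp1, Isg15, Isg20 and Oasl1 one of the opposite sign (edgeR adjusted p = 0.650 for each). Oasl1 had 3 counts or fewer in 4 of 8 ILC2p libraries, so its small p is not read. Irgm2, which was not one of the 6, gave -3.84 (SE 2.09), and from -4.76 to -0.82 with 1 library left out.

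The pathway around the members was read from fixed lists. Of 8 interferon ligands Ifng was the only one above 10 CPM in any library. It was at 76.4, 26.1, 9.80 and 7.82 CPM in WT ILC2, at 34.3, 46.2 and 18.6 CPM in Tgfbr2-/- ILC2, and at most 18.4 CPM in ILC2p, where 7 of 8 libraries were under 1 CPM. Ifnb1 was at 0 counts in every library, and Ifng, the only ligand tested, did not pass between genotypes in ILC2 (log2 fold change 0.21, SE 0.52). Of 5 receptor chains tested in ILC2p, 1, Ifngr1, the ligand-binding chain for interferon-γ, passed, where 2.61% of genes were called higher. It had 258, 277, 136 and 182 CPM in WT, against 667, 729, 422 and 586 CPM in Tgfbr2-/- (log2 fold change 1.49, SE 0.28, edgeR adjusted p = 0.0253), with no overlap. The 7 neutrophil genes, Ly6c2 and 3 of 4 basophil and mast cell genes were called higher in the same 4 libraries, and their part in this difference was not tested. In ILC2 its log2 fold change was 0.34 (SE 0.20).

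The remaining lists were read between genotypes only. None of the interferon regulatory factors, led by Irf1, passed there, with 7 of 7 tested in ILC2 and 6 in ILC2p. Irf5, which takes part in inflammatory cytokine induction, had 2.53, 3.08, 25.7 and 42.9 CPM in WT ILC2, against 73.4, 121 and 71.2 CPM in Tgfbr2-/- ILC2, with no overlap (log2 fold change 3.80, SE 0.93, edgeR adjusted p = 0.898). In ILC2p it had 0.446, 101, 84.5 and 146 CPM in WT, against 100.1, 59.5, 33.6 and 248 CPM in Tgfbr2-/-, and the genotypes overlapped (0.43, SE 1.22). Of 12 sensors and adaptors, led by Tmem173 (STING), 10 were tested in ILC2 and 9 in ILC2p, and none passed. The 6 inhibitors, led by Socs1, were all below 0 in ILC2 without a call. Socs3, which blocks JAK kinases, had 205, 198, 65.3 and 115 CPM in WT, against 110, 90.9 and 42.5 CPM in Tgfbr2-/- ILC2 (log2 fold change -1.06, SE 0.24, edgeR adjusted p = 0.877), below WT within each experiment. In ILC2p it had 0.536, 1.63, 26.4 and 19.7 CPM in WT, against 2.28, 289, 0.851 and 117 CPM in Tgfbr2-/-, again with overlap (4.15, SE 2.58), and 3 of the 6 inhibitors were above 0. Irf5 and Socs3 were chosen after their values were seen. Of the 9 class I genes, led by the heavy chain H2-K1, 8 were above 0 in ILC2 and 1 in ILC2p, and none passed between genotypes in either. H2-K1 in ILC2p had a log2 fold change of -0.55 (SE 0.13, edgeR adjusted p = 0.0767), under the fold that the call rule asks for.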

How the data were processed

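RNA sequencing tables of 15 libraries were used, each with 24690 rows. Per the study's methods, the authors mapped reads to mm9 with TopHat, and the submitters' processing notes also name Bowtie2 without a role; reads were counted with the program rpkmforgenes; whether strand was used is not given in the sources used here. The deposited files hold raw counts and RPKM per gene, the latter made by the authors. The ribosomal row Rn45s held 2.29 to 10.1% of counts.

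Counts were fitted with edgeR 4.0.16 in R 4.3.3 (TMM scaling, filterByExpr, quasi-likelihood test, experiment as a term), with Benjamini-Hochberg adjustment over all genes tested. A call needed an adjusted p under 0.1 and a fold over 1.5, as in the study's methods. DESeq2 1.42.0, limma 3.58.1 on log2(RPKM + 1), other scalings, filters and thresholds, a replicate block, single experiments and leaving out each library were alternatives. Single genes were also tested by exact permutation of genotype within experiments on log2(CPM + 1). The fits were tested on simulated data. Promoter letters came from RefSeq (GRCm38.p6), and positions in NCBIM37 from an exact match.

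Members named with values were those called, the 3 with the smallest p in each direction where fewer than 3 were called, the leader of each role, and those with 3 counts or fewer in at least as many libraries of a cell type as not. Oas1a, Isg20 and Tap1 in ILC2 and Ifitm1, Oas3 and Rtp4 in ILC2p fall outside that rule and were chosen after their values were seen. Fitted folds against groups with 3 counts or fewer in most libraries were left out. The members and lists were chosen with earlier results of these data known. The counts over one pathway list are not reported here.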

Additional observations from a re-analysis of the deposited data

Results flagged for a closer look

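Among 57 groups of 4 libraries examined for a library far from the others, 3 were marked, and chance marks about 1 in 20. Rsad2 stood at 6.08 CPM in WT ILC2 replicate 1 of the second experiment, where the other 3 WT ILC2 libraries were at or under 0.337 CPM. It stood at 2.67 CPM in WT ILC2p replicate 2 of the first experiment, where the others were at or under 0.0893 CPM. The membrane, dynamin-like and nucleotide-pool factors summed to 58.4 CPM in WT ILC2p replicate 1 of the first experiment, below the other 3 WT libraries, whose highest sum was 121 CPM. One difference between cell types passed its own test: the genotype effect of Ifitm2 in ILC2 minus that in ILC2p was -4.96 on the log2 scale, and all 7 neutrophil genes had differences of the same sign.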

How the results depend on the processing

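The median log2 fold change of all genes changed sign in ILC2 (-0.01, against 0.08 with library size scaling) and in ILC2p (-0.10, against 0.03 with DESeq2 and -0.31 with library size scaling). Over the alternatives run, the members' median exceeded that of all genes by 0.34 (no experiment term) to 0.59 (without WT replicate 2 of the first experiment) in ILC2, against 0.47, and by 0.03 (at least 10 counts in every library) to 0.71 (replicate block) in ILC2p, against 0.39. Upper quartile scaling moved the median of all genes to 0.10 in ILC2. Pairs of genes and members called follow, by comparison. For genotype in ILC2, DESeq2 called 338 genes and 4 members, and no low-count filter 3 genes. For genotype in ILC2p, against 321 and 2, DESeq2 called 1229 and 6, at least 10 counts in every library 199 genes, experiment 1 alone 38 and 0, and experiment 2 alone 77 genes. For genotype by cell type, against 127 and 1, an adjusted p under 0.05 gave 68 genes, DESeq2 1518 and 3, library size scaling 196, upper quartile scaling 203, no low-count filter 259 and 2, and both at least 10 counts and no experiment term 2 members. For experiment in ILC2, against 117 and 0, an adjusted p under 0.05 gave 5 genes, DESeq2 1347 and 7, library size scaling 23, upper quartile scaling 31 and no low-count filter 320 and 1. For experiment in ILC2p, DESeq2 gave 397 and 1 and no low-count filter 5 genes. For cell type in WT, against 373 and 0, an adjusted p under 0.05 gave 194 genes, DESeq2 1711 and 2, no low-count filter 615 and at least 10 counts 131. For cell type in Tgfbr2-/-, whose alternatives were chosen after seeing the data, against 2045 and 5, DESeq2 gave 3221 and 9, library size scaling 8 members, upper quartile scaling 10 members, at least 10 counts 406 genes and no experiment term 3 members. The cause of these shifts was not tested.

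With the replicate block, genotype in ILC2p called 175 genes and 2 members. Libraries with the same number did not deviate together (correlations -0.054, -0.012 and -0.051). With 2 libraries a group this gives a single value per experiment, and the second ILC2 experiment could not be checked. Whether the numbers pair the libraries is thus not settled.

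Leaving out each library in turn gave 0 to 0 genes and 0 to 0 members for genotype in ILC2, 179 to 319 and 2 to 3 in ILC2p, 14 to 407 and 0 to 3 for genotype by cell type, 0 to 10 and 0 to 0 for experiment in ILC2, 0 to 0 genes for experiment and for genotype by experiment in ILC2p (the latter chosen after seeing the data), 138 to 583 and 0 to 1 for cell type in WT, and 525 to 2504 and 1 to 7 for cell type in Tgfbr2-/-. In ILC2p 8 members did not pass the low-count filter and were not tested. Printed log2 fold changes moved too when 1 library was left out. Ifitm3 for genotype by cell type ran from -5.49 to -3.18. For experiment in ILC2, Ifit1 ran from 2.70 to 4.77 and Oasl1 from 2.52 to 4.46. Iigp1 for cell type in WT ran from -4.30 to -2.07, and Usp18 for genotype by experiment in ILC2p from -12.8 to -8.35.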
